A study of Homo sapiens with 12 samples.

Results

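The 41 genes described here encode the enzymes of glycolysis, the transporters that carry glucose and lactate across the cell membrane, and regulators and targets of the hypoxia-inducible factors (HIF). They were chosen by symbol, with earlier results of these data known. Each matched exactly 1 of the 60675 genes listed in every library. Of the 41, 17 are glycolytic enzymes and 24 are transporters, regulatory kinases, HIF pathway genes and HIF targets. Glycolysis converts glucose to pyruvate, and lactate dehydrogenase converts pyruvate to lactate, which leaves the cell through monocarboxylate transporters. HIF is a dimer whose alpha subunit (HIF1A or EPAS1) is hydroxylated by the EGLN enzymes and degraded when oxygen is plentiful, and which otherwise switches on many glycolytic genes, VEGFA and other targets.

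RNA was sequenced from C4-2 cells, a castration-resistant derivative of the human prostate cancer line LNCaP, and from cells labelled LNCaP. All were grown in hormone-depleted serum with the synthetic androgen R1881 at 1 nM. C4-2 cells received R1881 alone, R1881 with namoline (50 µM), R1881 with TCE-5002, or R1881 with both inhibitors (the combination). Namoline blocks KDM1A, a histone demethylase. TCE-5002 is described in the study as selective for KDM7A, another histone demethylase, while also acting on KDM7B and KDM2A. Its dose was listed at 100 µM in the series description and was lower in the study's methods. Cells labelled LNCaP received R1881 alone or the combination, and treatment lasted 72 h. Each of the 6 groups held 2 libraries, described in the study's methods as biological replicates of a cell line. The design asks how each inhibitor, and both together, change gene expression in androgen-treated cells.

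The libraries held between 14791602 and 20690819 counted fragments. The 2 TCE-5002 libraries of C4-2 stood further apart than any other pair, with 45 of 9897 genes at least 2-fold apart against 0 to 3 genes in the other groups. The log2 difference within this pair correlated with the GC content of the transcripts (Spearman correlation -0.81). In the other pairs this correlation ran from -0.55 (C4-2 with R1881) to 0.63 (labelled LNCaP with the combination). Each comparison was also refitted with a GC correction, and directions that turned with it are listed near the end. Its part in the results was not tested further. The header of the library titled LNCaP combination replicate 1 names namoline only, so the counts and called members that use it are also given without it. All 9 luminal prostate markers, KLK3 among them, reached 1 CPM (counts scaled to library depth) on average in every group. With R1881, the 10 mesenchymal markers summed to 836 to 923 CPM in the libraries labelled LNCaP and to 81.1 to 81.2 CPM in C4-2. Of these markers 6 and 4 reached 1 CPM on average, and PDGFRB did so in C4-2 only. COL1A2, DCN and LUM were under 1 CPM in both. VIM, a mesenchymal marker, was at 694 ± 59.3 CPM (SD, n = 2) in the libraries labelled LNCaP against 2.43 ± 0.269 CPM in C4-2. The summed epithelial marker level was 244 to 246 CPM against 2653 to 2774 CPM. The libraries labelled LNCaP are therefore named by their label. The 5 leukocyte markers were each under 1 CPM on average in every group.

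Many of the described genes carry the core of the hypoxia response element, the short sequence to which HIF binds, in front of their start. The core was searched as ACGTG or GCGTG on both strands (CACGT or CACGC when read on the other strand, with CACGTG counted as overlapping matches of ACGTG and CACGT) in the 250 bases before the first listed RefSeq start of each gene. It was found in 23 of the 36 members with an entry (63.9%), in 56.6% of 11759 genes tested in C4-2 that had an entry and in 43.1% of all 27305 genes, so the share among the members was close to that of the expressed genes. SLC2A3, SLC16A1, VEGFA, BNIP3L and HILPDA had no entry. The upstream stretches of 4 genes are shown because these genes gave 2 of the contrasting patterns below: DDIT4 and CITED2 fell with the combination in both sets of libraries, and HIF1A and EPAS1 rose with it in C4-2. Each stretch is 245 bases long, is written 5′ to 3′ on the gene's strand (RefSeq, GRCh38.p14) and holds no annotated exon; capitals mark core matches. DDIT4 lies at chr10:72273674-72273918 (plus strand), CITED2 at chr6:139374654-139374898 (minus strand), HIF1A at chr14:61695263-61695507 (plus strand) and EPAS1 at chr2:46297157-46297401 (plus strand).
DDIT4: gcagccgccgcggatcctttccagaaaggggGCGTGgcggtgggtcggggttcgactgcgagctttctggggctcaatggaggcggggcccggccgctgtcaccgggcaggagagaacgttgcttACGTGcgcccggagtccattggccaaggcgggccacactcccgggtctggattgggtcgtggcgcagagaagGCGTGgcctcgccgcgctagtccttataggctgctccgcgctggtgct
CITED2: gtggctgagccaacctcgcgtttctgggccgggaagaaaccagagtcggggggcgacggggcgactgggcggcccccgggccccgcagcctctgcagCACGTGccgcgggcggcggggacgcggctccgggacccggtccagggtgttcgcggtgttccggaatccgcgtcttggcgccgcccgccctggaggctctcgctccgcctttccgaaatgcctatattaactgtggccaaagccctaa
HIF1A: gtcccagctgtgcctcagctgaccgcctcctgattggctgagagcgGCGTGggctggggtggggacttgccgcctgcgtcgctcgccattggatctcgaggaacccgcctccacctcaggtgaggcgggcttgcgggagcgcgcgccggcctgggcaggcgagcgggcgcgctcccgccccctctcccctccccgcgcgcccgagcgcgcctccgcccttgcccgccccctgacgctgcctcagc
EPAS1: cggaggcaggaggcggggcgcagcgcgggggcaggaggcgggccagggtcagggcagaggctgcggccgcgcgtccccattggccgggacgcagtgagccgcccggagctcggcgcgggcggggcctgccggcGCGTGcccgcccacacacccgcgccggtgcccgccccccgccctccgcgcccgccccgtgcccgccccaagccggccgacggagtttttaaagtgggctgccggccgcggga
DDIT4 had 3 matches, which began 219, 125 and 53 bases before the start. CITED2 had 2 overlapping matches, HIF1A 1 and EPAS1 1. Genes that fell and genes that rose both held the core, which is a description of these letters and not of binding.

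In C4-2 cells most glycolytic enzymes were higher with either inhibitor alone and returned to the R1881 level, or below it, with the combination. The summed level of the 17 enzymes was 5704 and 5614 CPM in the R1881 libraries, 8495 and 9561 CPM with namoline, 9937 and 11047 CPM with TCE-5002, and 4891 and 5263 CPM with the combination. Every library of either single inhibitor was thus above every R1881 and combination library. Because RNA was taken from whole cultures, fewer cells of a kind and less RNA per cell cannot be told apart. The summed level of the 9 luminal prostate markers moved the same way, from 3700 to 3743 CPM with R1881, to 4786 to 4961 CPM with namoline, 6734 to 7194 CPM with TCE-5002 and 1220 to 1417 CPM with the combination, and its part in the enzyme result was not tested. The summed level of the 8 epithelial markers was instead highest with R1881, at 2653 to 2774 CPM against 2070 to 2223 CPM with namoline, 2268 to 2438 CPM with TCE-5002 and 2046 to 2195 CPM with the combination.

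**Figure D1:**
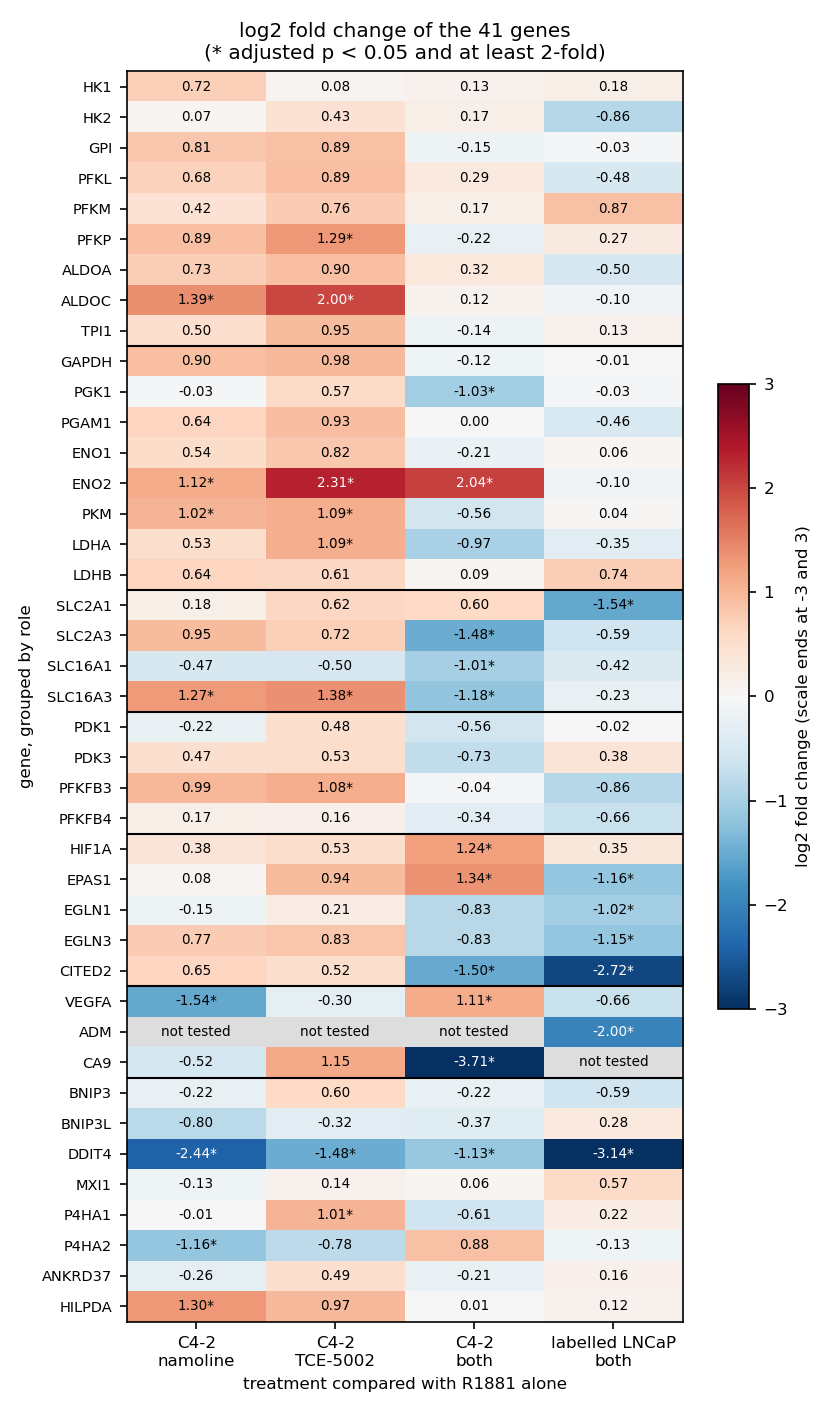
Fitted log2 fold change of each of the 41 genes (rows, separated by role) against R1881 alone in 4 comparisons (columns), red for higher and blue for lower, with an asterisk for an adjusted p under 0.05 and a change of at least 2-fold. The enzyme rows are mostly red in the first 2 columns and pale in the last 2, with ENO2 red in all 3 C4-2 columns and DDIT4 blue in all 4; grey marks genes too low to test, and values past -3 take the end colour.

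A gene was called where edgeR's quasi-likelihood F test gave a Benjamini-Hochberg adjusted p under 0.05 over all genes tested and the change was at least 2-fold. With namoline, 5 of the 40 members tested were called higher (5.17% of 17702 genes) and 3 lower (6.88%). At an adjusted p under 0.05 alone, 15 of the 17 enzymes were higher and 0 lower (18.7% and 16.3% of genes; unadjusted p under 0.05 for 0 lower, and 0 lower calls with DESeq2). With TCE-5002, 8 of 40 members were called higher (5.04%) and 1 lower (6.8%), and 16 of 17 enzymes had an adjusted p under 0.05 with a higher level (19.9% of genes). The median log2 fold change of the 17 enzymes was 0.68 with namoline and 0.90 with TCE-5002, beside medians of 0.00 over all genes. Without namoline replicate 2 the members called higher fell from 5 to 2, and without TCE-5002 replicate 1 they rose from 8 to 13. The 2 single-inhibitor comparisons and the combination share their R1881 libraries.

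GAPDH, the enzyme that yields NADH in glycolysis, shows the pattern. It was at 854 and 844 CPM with R1881, 1552 and 1661 CPM with namoline, 1547 and 1841 CPM with TCE-5002, and 752 and 826 CPM with the combination. The libraries with a single inhibitor did not overlap the others. The log2 fold change was 0.90 ± 0.12 (SE, adjusted p = 5.6e-05) with namoline and 0.98 ± 0.12 (adjusted p = 3.4e-05) with TCE-5002, both short of 2-fold, and -0.12 ± 0.12 (adjusted p = 0.43) with the combination. GAPDH served as the reference gene of the study's quantitative PCR, and the annotation lists 62 pseudogenes under its name, so its count is uncertain where fragments match both. ENO1, the common enolase, stood at 868 and 864 CPM with R1881, 1189 and 1373 CPM with namoline, 1477 and 1618 CPM with TCE-5002 and 736 and 776 CPM with the combination. Its single-inhibitor libraries also lay above all others, at log2 fold changes of 0.54 ± 0.11 (adjusted p = 0.0021) and 0.82 ± 0.12 (adjusted p = 9.8e-05).

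ALDOC, the brain-type aldolase, gave the largest enzyme change with namoline. It was at 34.4 and 39.2 CPM with R1881, 94.2 and 102 CPM with namoline, 135 and 164 CPM with TCE-5002, and 38.4 and 42 CPM with the combination. The 4 single-inhibitor libraries lay above the rest, with log2 fold changes of 1.39 ± 0.13 (adjusted p = 2.1e-06) for namoline and 2.00 ± 0.13 (adjusted p = 2.4e-07) for TCE-5002, and the TCE-5002 libraries were above the namoline libraries (namoline minus TCE-5002 -0.61 ± 0.12, adjusted p = 0.004). ALDOA, the muscle-type aldolase that dominates in these cells, was 0.73 ± 0.15 and 0.90 ± 0.15 higher on the log2 scale with namoline and TCE-5002 (adjusted p = 0.0015 and 0.00032). PFKP, the platelet form of phosphofructokinase, was at 73.4 and 73.0 CPM with R1881 and at 157 and 206 CPM with TCE-5002, a log2 fold change of 1.29 ± 0.14 (adjusted p = 1.5e-05), against 0.89 ± 0.14 (adjusted p = 0.00027) with namoline.

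PKM, the pyruvate kinase of most tissues, was at 470 and 468 CPM with R1881, 868 and 1063 CPM with namoline, 955 and 1069 CPM with TCE-5002, and 312 and 330 CPM with the combination. It was called higher with both inhibitors (1.02 ± 0.12, adjusted p = 2e-05, and 1.09 ± 0.12, adjusted p = 1.5e-05), and with the combination it was under its R1881 level (-0.56 ± 0.12, adjusted p = 0.0015).

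The last steps of the pathway included enzymes under their R1881 level with the combination. LDHA, the lactate dehydrogenase subunit that favours lactate formation, was at 417 and 356 CPM with R1881, 521 and 614 CPM with namoline, 850 and 826 CPM with TCE-5002 and 188 and 211 CPM with the combination. LDHA was thus highest with TCE-5002 and lowest with the combination, at log2 fold changes of 1.09 ± 0.12 (adjusted p = 1.4e-05) and -0.97 ± 0.12 (adjusted p = 1.6e-05); without R1881 replicate 2 the first was 0.99, under 2-fold, and the second -1.08, past it. LDHB, the other main subunit, was 0.64 ± 0.13 higher with namoline (adjusted p = 0.0013) and differed by 0.09 ± 0.13 with the combination (adjusted p = 0.6). PGK1, which makes the first ATP of glycolysis, was at 590 and 570 CPM with R1881, 547 and 604 CPM with namoline, 830 and 916 CPM with TCE-5002 and 275 and 297 CPM with the combination. Namoline libraries overlapped the R1881 libraries, and the combination lowered PGK1 by a log2 fold change of -1.03 ± 0.11 (adjusted p = 4.5e-06), which was -0.95 with a GC correction and -0.99 without combination replicate 1.

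HK1 and HK2, the hexokinases that trap glucose in the cell, did not follow the rest. HK1 was at 237 and 242 CPM with R1881, 382 and 421 CPM with namoline, 267 and 245 CPM with TCE-5002 and 255 and 276 CPM with the combination. Namoline libraries alone stood apart, at a log2 fold change of 0.72 ± 0.11 (adjusted p = 0.00013) against 0.08 ± 0.11 (adjusted p = 0.61) for TCE-5002, and the difference between the inhibitors was 0.65 ± 0.11 (adjusted p = 0.00094). HK2 ranged from 82.1 CPM to 117 CPM over all C4-2 libraries, with 0.43 ± 0.11 (adjusted p = 0.0057) for TCE-5002 and 0.07 ± 0.11 (adjusted p = 0.66) for namoline; HK2 missed the threshold with TCE-5002 without R1881 replicate 1 or 2 (adjusted p = 0.061 and 0.066).

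**Figure D2:**
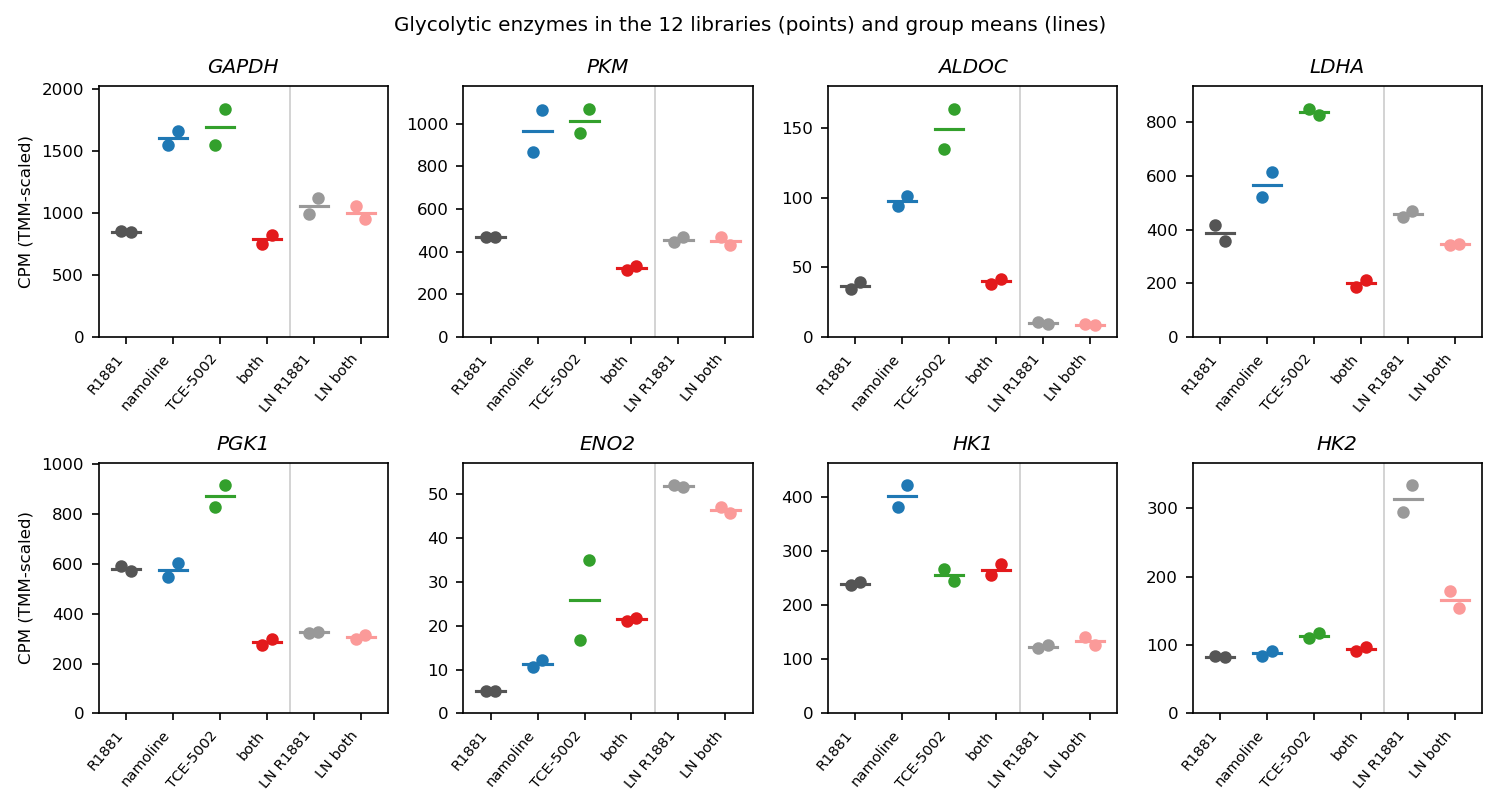
Level of 8 glycolytic enzymes in CPM (vertical axes from 0) in each of the 12 libraries, with points for libraries and lines for the means of 2; LN marks the libraries labelled LNCaP and both the combination. GAPDH, PKM, ALDOC and LDHA rise with either inhibitor and fall back with both, whereas HK1 is high with namoline alone and ENO2 stays high with both.

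ENO2, the neuronal enolase (chr12:6913745-6923698, GRCh38), was the enzyme that stayed high with the combination. It was at 5.19 and 5.12 CPM with R1881, 10.7 and 12.1 CPM with namoline, 16.7 and 35.0 CPM with TCE-5002, and 21.2 and 21.7 CPM with the combination. All treated libraries lay above the R1881 libraries, while the TCE-5002 libraries differed from each other by more than the combination libraries did. The log2 fold change was 1.12 ± 0.28 (adjusted p = 0.0069) with namoline, 2.31 ± 0.27 (adjusted p = 2.6e-05) with TCE-5002 and 2.04 ± 0.28 (adjusted p = 3.3e-05) with the combination. Without namoline replicate 2 the namoline value was 1.02 with an adjusted p of 0.051.

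With the combination in C4-2, 4 of 40 members were called higher (8.87% of genes) and 7 lower (12.8%), and without combination replicate 1 the lower count was 4. The enzymes contributed ENO2 and PGK1, 1 enzyme was higher and 3 lower at an adjusted p under 0.05 alone (24.8% and 25.6% of genes), and the median log2 fold change of the 17 was 0.00 beside -0.03 over all genes. Against namoline alone, 4 members were called higher (12.8%) and 14 lower (14.7%), the latter 9 without namoline replicate 2. Against TCE-5002 alone, 2 were called higher (11.7%) and 19 lower (14.3%). At an adjusted p under 0.05 alone, 14 of the 17 enzymes were lower than with namoline (29% of genes) and 1 higher (26.9%), and 15 were lower than with TCE-5002 (28.7%) and 0 higher (26.4%; edgeR, 0 at an unadjusted p under 0.05, 0 calls with DESeq2).

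The departure of the combination from the summed log2 effects of the 2 inhibitors was tested as an interaction. It was called negative for 24 of 40 members (18.6% of genes) and positive for 3 (16.7%). Among the enzymes 15 of 17 were negative past the threshold, HK1 was -0.67 ± 0.15 (adjusted p = 0.0018) and HK2 was -0.33 ± 0.15 (adjusted p = 0.078), with an enzyme median of -1.57 beside -0.01 over all genes. At an adjusted p under 0.05 alone, 16 were negative (27.9% of genes) and 0 positive (25.6%; edgeR, 0 at an unadjusted p under 0.05, 0 calls with DESeq2). Examples were ALDOC at -3.28 ± 0.18 (adjusted p = 6.3e-09), LDHA at -2.59 ± 0.17 (adjusted p = 2.4e-08) and GAPDH at -2.00 ± 0.17 (adjusted p = 2.9e-07). ENO2 was at -1.39 ± 0.37 (adjusted p = 0.0061), and at -0.76 without TCE-5002 replicate 2. In terms of single libraries, 13 of 17 enzymes and 7 of the 23 other members tested had all 4 single-inhibitor libraries above all 4 R1881 and combination libraries, an order seen in 14.9% of genes. The reverse order held for 0 enzymes and for VEGFA and P4HA2, and for 11.1% of genes. The 3 positive interactions were VEGFA, P4HA2 and DDIT4.

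The inhibitors were also compared with each other. Of the 40 members, 0 were called higher with namoline than with TCE-5002 (2.42% of genes; edgeR, 1 at an unadjusted p under 0.05, 0 with DESeq2) and 3 were called lower (2.53%). These were ENO2 (-1.19 ± 0.25, adjusted p = 0.0057), VEGFA (-1.24 ± 0.14, adjusted p = 7.3e-05) and P4HA1, a collagen prolyl hydroxylase (-1.02 ± 0.11, adjusted p = 4.6e-05). At an adjusted p under 0.05 alone, 1 of the 17 enzymes (HK1) was higher with namoline (8.91% of genes) and 7 were lower (9.25%), the latter 12 without TCE-5002 replicate 1, 3 without namoline replicate 1 and 4 without namoline replicate 2. ENO2 was -0.54 without TCE-5002 replicate 2.

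Among the transporters, the lactate exporter SLC16A3 (MCT4) was called in all 3 C4-2 comparisons with R1881. It was at 62.0 and 77.3 CPM with R1881, 140 and 201 CPM with namoline, 150 and 217 CPM with TCE-5002, and 31.5 and 30.3 CPM with the combination. R1881, single-inhibitor and combination libraries formed separate ranges, at log2 fold changes of 1.27 ± 0.19 (adjusted p = 0.00013), 1.38 ± 0.19 (adjusted p = 7.1e-05) and -1.18 ± 0.19 (adjusted p = 0.00017); the first was 0.98 without namoline replicate 2. CSNK1D overlaps SLC16A3 on the opposite strand, and fragments were counted without regard to strand. SLC16A1 (MCT1), the other lactate carrier, was lower in all 3 comparisons, at -0.47 ± 0.11, -0.50 ± 0.11 and -1.01 ± 0.11 (adjusted p = 0.005, 0.0032 and 7.2e-06), the first with an adjusted p of 0.062 without R1881 replicate 1 and 0.077 without namoline replicate 2. SLC2A1 (GLUT1), the widespread glucose importer, was at 39.3 and 45.4 CPM with R1881, 44.3 and 53.1 CPM with namoline, 58.0 and 73.4 CPM with TCE-5002 and 59.4 and 70.0 CPM with the combination. It rose modestly with TCE-5002 (0.62 ± 0.15, adjusted p = 0.0046) and with the combination (0.60 ± 0.15, adjusted p = 0.0037), with adjusted p of 0.077 and 0.062 without R1881 replicate 1, and of 0.053 for the combination without combination replicate 2. The neuronal-type importer SLC2A3 (GLUT3) was scarce, with 9 to 69 counts per C4-2 library, and was called lower with the combination (-1.48 ± 0.35, adjusted p = 0.0027).

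The 4 regulatory kinases set the rate of glycolysis or the entry of pyruvate into mitochondria. PFKFB3, which makes the activator of phosphofructokinase, was called higher with TCE-5002 (1.08 ± 0.16, adjusted p = 0.00014), and its value with namoline was 0.99 ± 0.16. PDK1 and PDK3, which inhibit pyruvate dehydrogenase, had an adjusted p under 0.05 with lower levels in the combination, at -0.56 ± 0.12 and -0.73 ± 0.15. At the same threshold PDK3 was higher with either inhibitor alone, and PDK1 with TCE-5002 only. For PDK3 every single-inhibitor library lay above every R1881 and combination library. PFKFB4 had values from -0.34 to 0.17 in C4-2 against R1881, none past the test, but its value with TCE-5002 was 0.56 (adjusted p = 0.004) without TCE-5002 replicate 1 and -0.39 (adjusted p = 0.058) without replicate 2. Its value of -0.34 with the combination had an adjusted p of 0.027 when 1 of the 2 TCE-5002 libraries, whichever it was, was left out.

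The HIF alpha subunits rose with the combination. HIF1A was at 189 and 172 CPM with R1881, 242 and 234 CPM with namoline, 308 and 221 CPM with TCE-5002, and 414 and 444 CPM with the combination. Combination libraries lay above all others, at a log2 fold change of 1.24 ± 0.14 (adjusted p = 5.1e-06) against 0.38 ± 0.13 (adjusted p = 0.041) with namoline and 0.53 ± 0.13 (adjusted p = 0.007) with TCE-5002. The TCE-5002 value was 0.28 without TCE-5002 replicate 1 and 0.75 without replicate 2, with an adjusted p of 0.076 without R1881 replicate 2, and the namoline value missed the adjusted p threshold on leaving out any 1 of the 6 R1881, namoline and combination libraries (adjusted p from 0.067 to 0.23). HIF1A mRNA does not measure the protein, which is mainly controlled by degradation. EPAS1, which encodes HIF-2 alpha, was low, at 2.43 and 2.30 CPM with R1881, 2.59 and 2.52 CPM with namoline, 5.20 and 4.07 CPM with TCE-5002, and 4.82 and 7.38 CPM with the combination. The last 2 groups overlapped each other and not the first 2, with 1.34 ± 0.26 (adjusted p = 0.00059) for the combination. EPAS1 also had an adjusted p under 0.05 with TCE-5002, at values from 0.76 to 1.11 on leaving out 1 library. The combination did not differ from TCE-5002 alone for EPAS1 at that threshold. Tests of the interaction of the 2 inhibitors, described above, did not pass it for HIF1A or EPAS1. The oxygen-sensing hydroxylases EGLN1 and EGLN3 were at -0.83 ± 0.11 and -0.83 ± 0.20 with the combination (adjusted p = 2.6e-05 and 0.0027). With either inhibitor alone EGLN3 was higher at an adjusted p under 0.05, and EGLN1 did not pass that threshold.

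CITED2, a transcriptional coregulator that competes with HIF for its coactivator, fell with the combination. It was at 64.5 and 68.6 CPM with R1881, 95.9 and 116 CPM with namoline, 96.8 and 96.8 CPM with TCE-5002, and 24.03 and 23.26 CPM with the combination. The single-inhibitor libraries were highest and the combination libraries lowest, with log2 fold changes of 0.65 ± 0.12 (adjusted p = 0.00068), 0.52 ± 0.12 (adjusted p = 0.0032) and -1.50 ± 0.12 (adjusted p = 4.2e-07); the second had an adjusted p of 0.06 without R1881 replicate 1.

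VEGFA, the angiogenic growth factor, ran opposite to the enzymes. It was at 442 and 466 CPM with R1881, 143 and 174 CPM with namoline, 331 and 417 CPM with TCE-5002, and 888 and 1089 CPM with the combination. The namoline libraries were lowest and the combination libraries highest, without overlap, at -1.54 ± 0.14 (adjusted p = 2.1e-06) and 1.11 ± 0.14 (adjusted p = 2e-05), with -0.30 ± 0.14 (adjusted p = 0.11) for TCE-5002; the combination value was 0.98 without combination replicate 2, and the TCE-5002 value was -0.14 (adjusted p = 0.36) without TCE-5002 replicate 1 and -0.48 (adjusted p = 0.0027) without replicate 2. The interaction was 2.95 ± 0.20 (adjusted p = 3.6e-08). P4HA2, another collagen prolyl hydroxylase, was at 68.4 and 72.0 CPM with R1881, 30.7 and 32.9 CPM with namoline, 39.5 and 43.5 CPM with TCE-5002, and 129 and 132 CPM with the combination. It shared the order of VEGFA, with -1.16 ± 0.12 (adjusted p = 3.6e-06), -0.78 ± 0.11 (adjusted p = 0.00013) and 0.88 ± 0.11 (adjusted p = 1.7e-05).

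DDIT4 (REDD1), a stress-induced inhibitor of mTORC1, was lower in every treated C4-2 library. It was at 229 and 266 CPM with R1881, 38.9 and 54.0 CPM with namoline, 71.8 and 108 CPM with TCE-5002, and 105 and 123 CPM with the combination. Namoline gave the lowest libraries, and the log2 fold changes were -2.44 ± 0.19 (adjusted p = 4e-07), -1.48 ± 0.18 (adjusted p = 3.4e-05) and -1.13 ± 0.18 (adjusted p = 0.00014). HILPDA, a lipid droplet protein, was at 11.7 and 14.2 CPM with R1881, 31.3 and 33.2 CPM with namoline, 22.8 and 28.6 CPM with TCE-5002 and 13.8 and 12.4 CPM with the combination. It followed the enzymes, at 1.30 ± 0.16 (adjusted p = 2.9e-05) with namoline and 0.01 ± 0.17 (adjusted p = 0.97) with the combination. P4HA1 rose with TCE-5002 (1.01 ± 0.11, adjusted p = 1.2e-05), and by 0.91 without TCE-5002 replicate 1. The mitophagy receptors BNIP3 and BNIP3L, and MXI1 and ANKRD37, were within 2-fold in every C4-2 comparison with R1881. CA9, a carbonic anhydrase, had 14 and 17 counts with R1881 and 1 count in each combination library, and its call there rests on those counts, with an adjusted p of 0.057 without combination replicate 1. ADM, the vasodilator adrenomedullin, was too low to test in C4-2, with 2 to 27 counts per library.

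**Figure D3:**
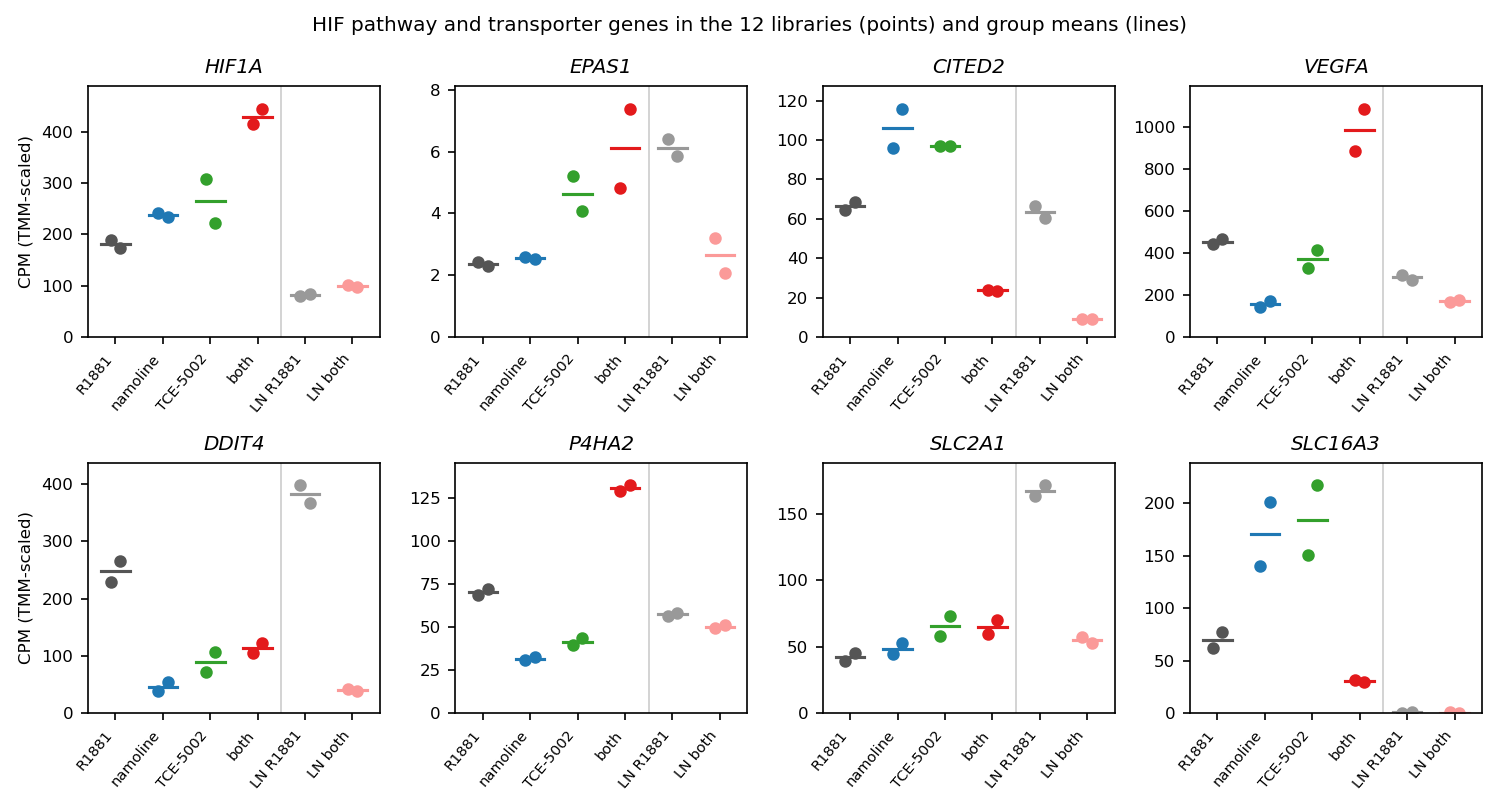
Level of 8 HIF pathway and transporter genes in CPM (vertical axes from 0) in each of the 12 libraries, with points for libraries and lines for the means of 2; LN marks the libraries labelled LNCaP and both the combination. HIF1A, VEGFA and P4HA2 are highest with both inhibitors in C4-2, CITED2 and SLC16A3 are lowest there, and DDIT4 is below its R1881 level in every treated group.

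Within enzyme families the make-up of the isoenzymes was compared per length, with no test. The measure was FPKM (fragments scaled to the annotated exon length and to library depth). That length was 6153 bases for ALDOA and 2928 for ALDOC, and 6210 for LDHA and 2983 for LDHB. The size of a share and the order of genes by FPKM depend on these lengths. Lengths of the transcripts present in these cells were not measured. Of the hexokinase FPKM in C4-2, HK1 made up 74.2% ± 0.617 (SD, n = 2) with R1881 and 81.9% ± 0.182 with namoline, which was outside the spread of either pair. ALDOC made up 11.6% ± 0.444 of aldolase with R1881, 22.2% ± 1.52 with TCE-5002 and 10.2% ± 0.0280 with the combination. LDHA made up 37.6% ± 2.15 of lactate dehydrogenase with R1881, 46.0% ± 4.79 with TCE-5002 and 22.5% ± 0.945 with the combination. ENO2 was a minor enolase throughout, at 0.548% ± 0.00399 with R1881 and 2.56% ± 0.0513 with the combination in C4-2. In the libraries labelled LNCaP, LDHA made up 30.7% ± 1.23 with R1881, and 17.8% and 16.6% in combination replicates 1 and 2. HK1 made up 28.2% ± 1.09 there with R1881, and 44.1% and 45.0% in those combination replicates. Per length, GAPDH was the highest of the 41 in C4-2 with R1881 (285 ± 2.34 FPKM), followed by ENO1 (219 ± 0.647 FPKM) and TPI1 (164 ± 8.29 FPKM). LDHB (103 ± 2.20 FPKM) and PGK1 (107 ± 2.58 FPKM) followed DDIT4 as neighbours whose mean ± SD ranges overlapped. In CPM, which is not scaled to length, ENO1 was above GAPDH in each C4-2 library with R1881 alone.

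**Figure D4:**
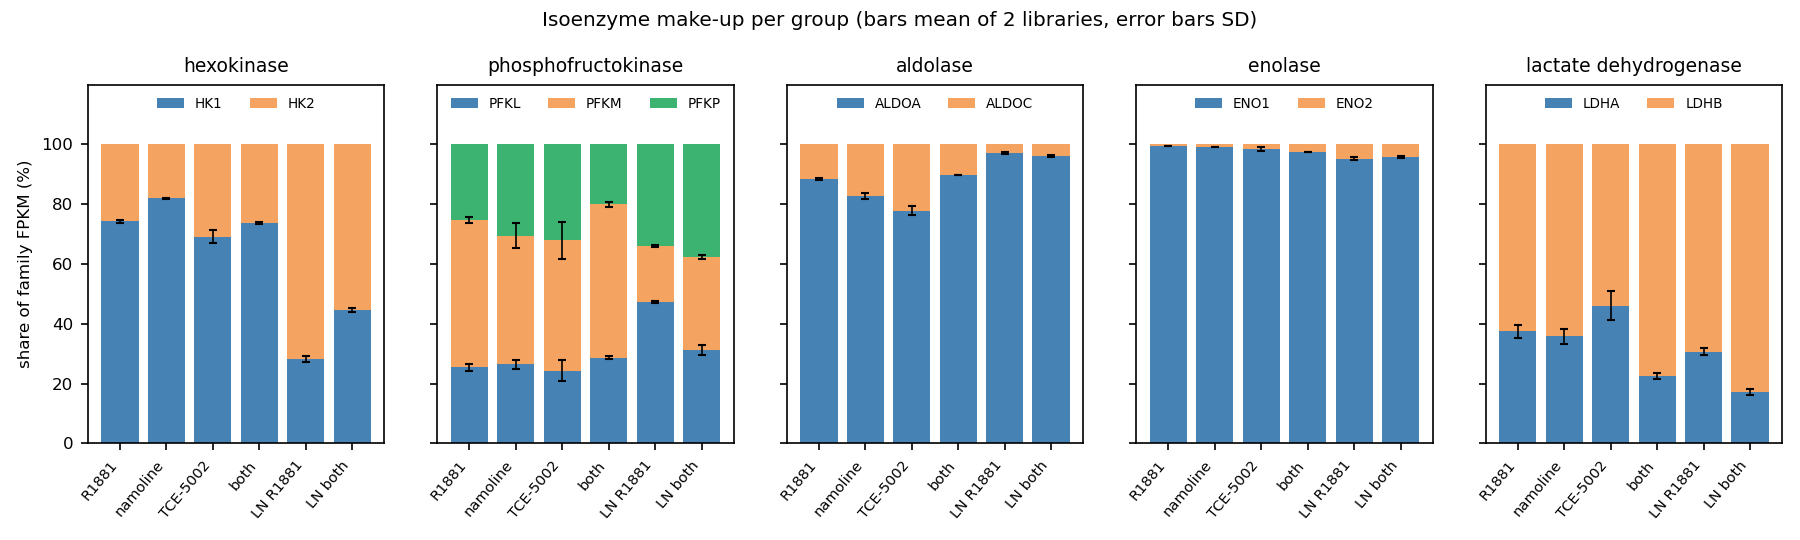
Share of each isoenzyme in the summed FPKM of its family (percent, stacked bars, means of 2 libraries with SD error bars at the borders) in the 6 groups; LN marks the libraries labelled LNCaP and both the combination. In C4-2 the ALDOC share is largest and the LDHA share highest with TCE-5002, and HK2 exceeds HK1 only in the libraries labelled LNCaP.

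In the libraries labelled LNCaP the enzymes moved little as a sum, while single enzymes moved in either direction. Their summed level was 5797 and 6345 CPM with R1881 and 5985 and 5589 CPM with the combination, which overlap. The summed luminal marker level was 879 to 979 CPM with R1881 and 399 to 499 CPM with the combination, and its part in the results below was not tested. Of the 40 members tested, 0 were called higher (7.44% of 17565 genes; edgeR, 7 at an unadjusted p under 0.05, 0 with DESeq2) and 7 lower (11.3%). None of the 17 enzymes was called; 3 were higher and 5 lower at an adjusted p under 0.05 (28% and 28.2% of genes), with a median of -0.03; without combination replicate 1 these were 2 and 5. PFKM and LDHB were higher, at 0.87 ± 0.10 (adjusted p = 1.8e-08) and 0.74 ± 0.11 (adjusted p = 1.4e-06), and HK2 was lower, at -0.86 ± 0.11 (adjusted p = 6e-08); without combination replicate 1 they were at 0.80, 0.80 and -0.99. GAPDH was at -0.01 ± 0.12 (adjusted p = 0.96), at 0.28 (adjusted p = 0.027) with a GC correction and at -0.10 without combination replicate 1.

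The 7 members called lower were DDIT4, CITED2, SLC2A1, ADM, EPAS1, EGLN1 and EGLN3. DDIT4 was at 397 and 366 CPM with R1881 and 43.4 and 39.7 CPM with the combination, a log2 fold change of -3.14 ± 0.11 (adjusted p = 1.6e-20). CITED2 was at 66.3 and 60.6 CPM against 9.22 and 9.24 CPM (-2.72 ± 0.13, adjusted p = 5.6e-17). SLC2A1 was at 163 and 171 CPM against 57.2 and 52.8 CPM (-1.54 ± 0.11, adjusted p = 1.6e-13). For these genes the groups lay far apart. ADM was at 7.29 and 5.81 CPM against 1.46 and 1.65 CPM (-2.00 ± 0.28, adjusted p = 2.5e-07). EPAS1 (-1.16 ± 0.26), EGLN1 (-1.02 ± 0.10) and EGLN3 (-1.15 ± 0.22) were also called, at adjusted p of 0.00031, 6.1e-10 and 3.2e-05, and HIF1A was 0.35 ± 0.10 higher (adjusted p = 0.0049). Without combination replicate 1, whose header names namoline only, DDIT4 was at -3.22, CITED2 at -2.73, SLC2A1 at -1.62, ADM at -1.94, EPAS1 at -1.52, EGLN3 at -1.16 and HIF1A at 0.31, and 6 members were called lower, since EGLN1 was then at -0.98. Without combination replicate 2, EPAS1 was at -0.86.

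The effect of the combination was then compared between C4-2 and the libraries labelled LNCaP. It was higher in C4-2 past the threshold for 7 of 41 members (11.4% of 19763 genes) and lower for 2 (13.9%). SLC2A1 rose in C4-2 and fell in the other libraries (difference 2.09 ± 0.14, adjusted p = 2.8e-11), as did EPAS1 (2.45 ± 0.36, adjusted p = 5.1e-06) and VEGFA, which was at -0.66 ± 0.10 in the libraries labelled LNCaP (1.72 ± 0.13, adjusted p = 1.7e-10). ENO2 rose in C4-2 and was at -0.10 ± 0.11 in the other libraries, where it was already at 52.0 and 51.7 CPM with R1881 (2.09 ± 0.17, adjusted p = 5.5e-10). DDIT4 and CITED2 fell in both, and further in the libraries labelled LNCaP, by differences of 1.95 ± 0.13 (adjusted p = 5.7e-11) and 1.17 ± 0.15 (adjusted p = 1.1e-06). PGK1 and PDK3 were the members lower in C4-2, at -1.06 ± 0.11 (adjusted p = 5.9e-08) and -1.17 ± 0.21 (adjusted p = 6.4e-05), and PGK1 was at -0.99 with another scaling. ADM, with 2 to 27 counts per C4-2 library, was at 4.51 ± 0.72 (adjusted p = 1.4e-05). Of the enzymes, 5 were higher in C4-2 and 8 lower at an adjusted p under 0.05 alone (21.7% and 25.9% of genes), and 5 and 6 without labelled LNCaP combination replicate 1. Without combination replicate 1 of the libraries labelled LNCaP, the differences were 4.42 for ADM, 2.15 for SLC2A1, 2.78 for EPAS1, 1.68 for VEGFA, 2.10 for ENO2, 2.01 for DDIT4, 1.16 for CITED2, -1.10 for PGK1 and -1.14 for PDK3, and HK2 was also called, at 1.08. The members called lower were 1 in place of 2 without R1881 replicate 1 of those libraries.

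**Figure D5:**
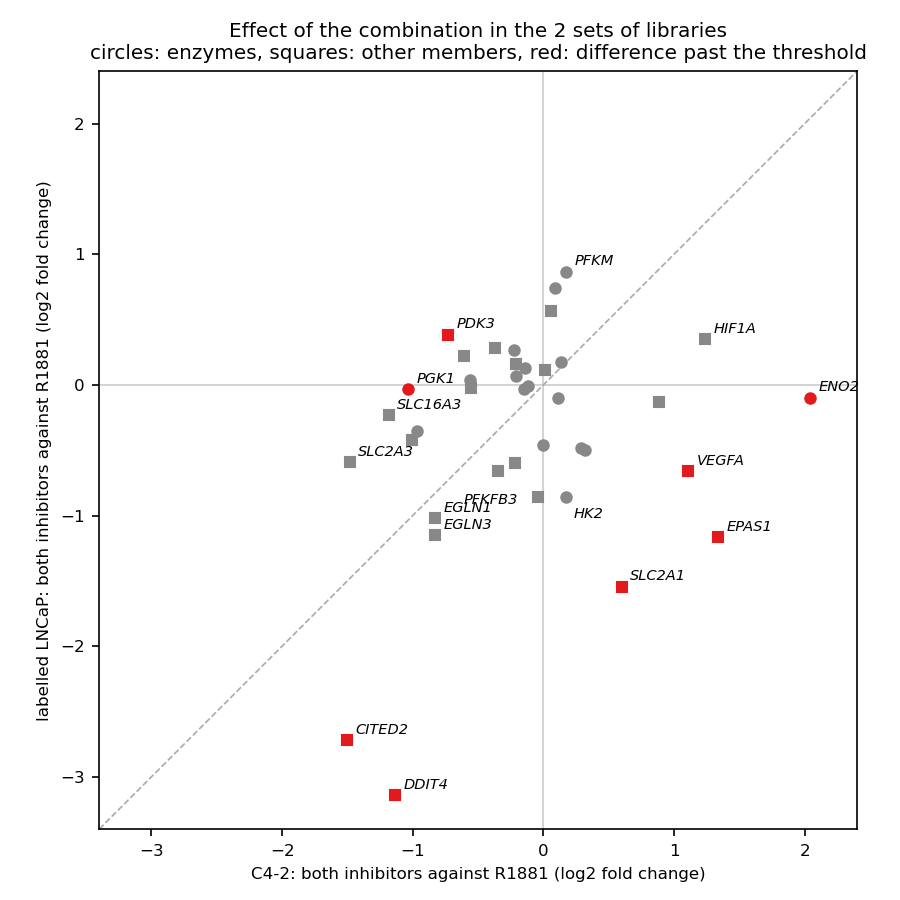
Log2 fold change of the combination against R1881 in C4-2 (horizontal axis) and in the libraries labelled LNCaP (vertical axis) for the 39 members tested in both, with the dashed line marking equal effects, circles for enzymes, squares for other members and red for differences past the threshold. ENO2, VEGFA, EPAS1 and SLC2A1 lie far to the lower right, and DDIT4 and CITED2 lie at the lower left below the line.

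Levels with R1881 alone also differed between the cells. Of the 41 members, 7 were called higher in the libraries labelled LNCaP (26.2% of genes) and 10 lower (24.3%), and 6 and 5 of the 17 enzymes passed an adjusted p under 0.05 alone (39% and 37.8%). HK2 was at 295 and 334 CPM there against 83.9 and 82.1 CPM in C4-2 (1.86 ± 0.09, adjusted p = 1.1e-14), and HK1 was at 120 and 126 CPM (-1.01 ± 0.09, adjusted p = 1.5e-10, and -0.96 with another scaling). HK1 was therefore 28.2% ± 1.09 of hexokinase FPKM in those libraries. SLC16A3 was nearly absent there, with 13 to 28 counts per labelled LNCaP library over the R1881 and combination groups. HIF1A was at a log2 difference of -1.21 ± 0.09 (adjusted p = 6.1e-12) between the cells with R1881. These contrasts compare cells that also differed in their epithelial and mesenchymal markers.

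Other genes of the same pathways were described from 2 further lists. Of 31 other genes of glycolysis and pyruvate metabolism, 25 were tested in C4-2: 4 were called higher and 3 lower with namoline, 3 and 2 with TCE-5002, and 5 and 4 with the combination, beside 5.17% and 6.88%, 5.04% and 6.8%, and 8.87% and 12.8% of all genes. PCK2, mitochondrial phosphoenolpyruvate carboxykinase, was lower in all 3, at -1.82, -1.75 and -2.03 on the log2 scale (adjusted p = 5.5e-08, 2.4e-07 and 1.2e-08). TIGAR, a phosphatase that lowers fructose-2,6-bisphosphate, and MPC1, a subunit of the mitochondrial pyruvate carrier, were called with the combination alone of the 3, at 1.64 and 1.32. MPC1 was also higher in the libraries labelled LNCaP (1.11, adjusted p = 9.3e-10, and 1.21 without combination replicate 1), where 2 of 29 genes of the list were called higher and 4 lower (7.44% and 11.3% of all genes), also 2 and 4 without that library.

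Of 32 other HIF pathway and hypoxia genes, 30 were tested in each set of libraries. With namoline 1 was called higher and 5 lower, with TCE-5002 1 and 3, with the combination 3 and 7, and in the libraries labelled LNCaP 1 and 5. The shares of all genes were 5.17% and 6.88%, 5.04% and 6.8%, 8.87% and 12.8%, and 7.44% and 11.3%. Without labelled LNCaP combination replicate 1 the last counts were 3 and 5, and without labelled LNCaP R1881 replicate 1 they were 2 and 5. CA12, a membrane carbonic anhydrase, was the gene called higher with each single inhibitor (2.21 and 2.75, adjusted p = 7e-07 and 2.4e-07) and was at 0.10 with the combination (adjusted p = 0.71), the order seen for the enzymes. WSB1, a ubiquitin ligase adaptor, was at 2.32 with the combination (adjusted p = 1.2e-08), and PLOD2, a collagen lysyl hydroxylase, at -1.79 (adjusted p = 1.3e-07). NDUFA4L2, a mitochondrial protein, was called lower in all 4 comparisons, from -2.34 to -1.52, and was at -0.98 with TCE-5002 without TCE-5002 replicate 1 and at -2.37 without replicate 2. ARNT, the partner subunit of the HIF dimer, was called higher in the libraries labelled LNCaP (1.37, adjusted p = 2e-12, and 1.35 without combination replicate 1) and was at 0.51 with the combination in C4-2 (adjusted p = 0.001).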

How the data were processed

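The authors captured polyadenylated RNA, sequenced paired ends, trimmed adapters with TrimGalore, aligned the reads with STAR (GRCh38) and counted fragments in Ensembl release 83 genes. The deposited tables, made by featureCounts 1.5.0-p1 with no strand option, hold raw counts, 1 library each. The groups came from the library titles, since a treatment protocol in the labels describes siRNA work.

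Genes were filtered with filterByExpr (minimum count 10), scaled by TMM and tested with edgeR 4.0.16 in R 4.3.3 (quasi-likelihood F test, Benjamini-Hochberg adjustment over all genes tested), with the C4-2 comparisons on all 8 C4-2 libraries, the labelled LNCaP comparison on 4 libraries and the comparisons between cells on the 8 R1881 and combination libraries. Depth, from 14791602 to 20690819 counts, and 2 libraries per group limited the precision. The scripts were tested on simulated data. The study's methods used edgeR with the same fold and adjusted p thresholds. CPM and FPKM used TMM over all 12 libraries. SE is the absolute log2 fold change divided by the square root of F.

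The members and lists were chosen with earlier results of these data known. Named members were 13 fixed ones and, per comparison with R1881, up to 4 rising and 4 falling called members with the largest change and at least 5 CPM; other members and genes of the 2 further lists are named by role, call or count, chosen after their values were seen. Promoter windows came from RefSeq (GRCh38.p14). Alternatives were RLE scaling, no filter, a likelihood ratio test, DESeq2 1.42.0, a replicate block, a GC correction with and without the block, leaving out each library, and fitting only the groups compared.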

Additional observations from a re-analysis of the deposited data

Results flagged for a closer look

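The effect of the combination differed between C4-2 and the libraries labelled LNCaP, by the test of the difference itself (edgeR), for 9 members. On the log2 scale, C4-2 minus labelled LNCaP, the differences were 4.51 for ADM, 2.45 for EPAS1, 2.09 for SLC2A1, 2.09 for ENO2, 1.95 for DDIT4, 1.72 for VEGFA, 1.17 for CITED2, -1.06 for PGK1 and -1.17 for PDK3. ADM had 27 and 7 counts in the C4-2 combination libraries and 4 and 2 with R1881, so its value rests on few counts. Without labelled LNCaP combination replicate 1, whose header names namoline only, all 9 remained called, from -1.14 for PDK3 to 4.42 for ADM. Cell line and marker make-up differ together between these sets of libraries and cannot be told apart.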

How the results depend on the processing

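Of 306 recomputed counts of called members, 297 stayed within 1.5 times the reported value; of 3102 recomputed values of named members, 2966 kept their direction and side of the threshold, 38 passed it newly, 48 lost it and 50 turned direction, all of the last in values that were not called. Of 153 recomputed medians of the 17 enzymes, 145 stayed within the median SE of the enzymes and 8 did not. On leaving out 1 library the median ran from 0.60 to 0.77 with namoline and from 0.81 to 1.02 with TCE-5002. Leaving out 1 library moved the members called higher with namoline between 2 and 7 and with TCE-5002 between 7 and 13, those called lower with the combination between 4 and 8 and against namoline between 9 and 15, and those lower in C4-2 than in the labelled LNCaP effect between 1 and 3. The last was 1 with RLE scaling, 1 with DESeq2, 1 with the GC correction and 1 with the GC correction and replicate block. The cause of these changes was not tested. With the replicate block the members lower in the combination than with namoline were 13 in place of 14, and those lower with namoline than with TCE-5002 were 4 in place of 3. The replicate numbers gave 2 pairs, and deviations of same-numbered C4-2 libraries correlated at -0.02 to 0.44.

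Directions turned with the GC correction (with the block in brackets) for PGK1 with namoline, 0.095 (0.091), SLC2A1 in the combination minus TCE-5002, 0.081 (0.081, and 0.021 with RLE scaling and 0.021 with DESeq2), and, in the libraries labelled LNCaP, ALDOC 0.12 (0.12), ENO2 0.067 (0.067), GAPDH 0.28 (0.28) and SLC16A3 0.22 (0.25). For R1881 levels between the cells they turned for ALDOA, -0.00050 (-0.0011), ENO1, -0.073 (-0.075), HILPDA, -0.0037 (-0.0034), LDHA, -0.0059 (-0.0059) and PFKP, -0.16 (-0.17).

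Leaving out 1 library turned the direction of PGK1 with namoline (-0.11 to 0.0092) and HILPDA with the combination (-0.13 to 0.14). In the combination minus TCE-5002 it turned ENO2 (-0.70 to 0.37, the higher without TCE-5002 replicate 2), HK1 (-0.0036 to 0.12) and SLC2A1 (-0.18 to 0.16). In namoline minus TCE-5002 it turned ALDOA (-0.40 to 0.092), CITED2 (-0.029 to 0.23), GAPDH (-0.22 to 0.062), HIF1A (-0.36 to 0.082), LDHB (-0.16 to 0.24) and SLC16A3 (-0.40 to 0.19). In the libraries labelled LNCaP it turned ENO1 (-0.044 to 0.17), GAPDH (-0.11 to 0.088), HILPDA (-0.089 to 0.30) and SLC16A3 (-0.60 to 0.26), and in the difference between the cells GAPDH (-0.25 to 0.036), HILPDA (-0.35 to 0.030) and HK1 (-0.19 to 0.054). ADM in C4-2, CA9, SLC2A3 and, in the libraries labelled LNCaP, SLC16A3 rested on few counts.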

Other observations

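PGM1, which links glycogen to glycolysis and was looked up after its values were seen, averaged 69.7 ± 3.78 CPM (SD, n = 2) in the libraries labelled LNCaP with R1881 and 0.228 ± 0.141 CPM in their C4-2 counterparts. It remained under 0.2 CPM on average in the C4-2 libraries with namoline (0.178 CPM), TCE-5002 (0.106 CPM) and the combination (0.121 CPM), too low to test.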
